A study of Mus musculus with 86 samples.

Results

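Binding of the transcription factor PU.1 was compared in large peritoneal macrophages (LPM), the resident macrophages of the peritoneal cavity, of 3 mouse strains: C57BL6/J, NOD/ShiLtJ and SPRET/EiJ. The members are the deposited PU.1 peak lists of untreated LPM, 1 list and 1 ChIP-seq library per strain, and they are 3 of the 13 PU.1 ChIP-seq libraries among the 86 samples of the series. The lists hold 65261 entries for C57BL6/J, 36125 for NOD/ShiLtJ and 27633 for SPRET/EiJ, nearly all of them 179, 176 and 174 bp long. Entries that overlapped by at least 1 bp across lists were joined into sites, which gave 79941 sites on the 21 chromosomes common to the lists. Per the labels, the cells were stained, fixed and then sorted before chromatin was prepared, and none was treated. The labels state neither the sex nor the age nor the number of animals. With 1 library per strain there is no replicate check, no test was made between strains, and intervals below cover counting error over sites or genes only.

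PU.1, encoded by Spi1, is an ETS family transcription factor that macrophages need for their development. It binds a purine-rich sequence with the core GGAA and opens chromatin at enhancers and promoters, where partner factors such as C/EBP, AP-1 and IRF proteins bind beside it. Enhancers in use carry the histone mark H3K27ac, and promoters and enhancers in a wider sense carry H3K4me2. C57BL6/J is the strain of the mouse reference genome, NOD/ShiLtJ is a laboratory strain that is prone to autoimmune diabetes, and SPRET/EiJ is a wild-derived inbred strain of Mus spretus, a species whose DNA differs from that of laboratory mice at many more positions. LPM are known for expression of Gata6, which drives their tissue-specific program under retinoic acid.

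The 250 bases before the transcript start of 6 genes (RefSeq, GRCm38.p6) are shown because a PU.1 site overlapped each of them. It did so in all 3 strains for the first and in 1 strain for the others. The overlap was partial, so marked motifs can lie outside the site. The Cd53 site was chr3:106790026-106790204 and the Psmf1 site chr2:151741191-151741366. Letters in capitals mark GGAA or its reverse complement TTCC, and in Nlrp1b also GAGGAAGT, a longer form of the PU.1 motif. Cd53, a tetraspanin of leukocytes, lies on the minus strand of chr3 and its stretch is chr3:106790150-106790399. Nlrp1b, an inflammasome sensor, and Spic, an ETS factor related to PU.1, were overlapped in C57BL6/J only (chr11:71230734-71230983 and chr10:88683024-88683273, both minus). Psmf1, a proteasome inhibitor, was overlapped in NOD/ShiLtJ only (chr2:151741311-151741560, minus). Cd302, a C-type lectin receptor, and Mgst2, a microsomal glutathione S-transferase, were overlapped in SPRET/EiJ only (chr2:60284485-60284734, minus, and chr3:51660929-51661178, plus).
Cd53: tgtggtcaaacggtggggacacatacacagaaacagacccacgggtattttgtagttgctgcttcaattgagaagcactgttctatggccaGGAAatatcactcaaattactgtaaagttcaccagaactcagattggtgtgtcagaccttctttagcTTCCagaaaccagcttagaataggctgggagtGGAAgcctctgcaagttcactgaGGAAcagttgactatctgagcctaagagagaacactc
Nlrp1b: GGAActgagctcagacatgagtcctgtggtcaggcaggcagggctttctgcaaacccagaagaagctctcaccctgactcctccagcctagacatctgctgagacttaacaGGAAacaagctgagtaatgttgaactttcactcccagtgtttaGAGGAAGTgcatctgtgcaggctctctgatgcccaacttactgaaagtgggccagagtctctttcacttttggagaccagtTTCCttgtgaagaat
Spic: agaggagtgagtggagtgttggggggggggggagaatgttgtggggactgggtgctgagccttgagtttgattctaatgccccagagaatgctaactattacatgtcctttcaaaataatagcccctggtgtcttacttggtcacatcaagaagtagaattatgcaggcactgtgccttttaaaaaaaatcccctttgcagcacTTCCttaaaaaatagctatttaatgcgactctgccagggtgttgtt
Psmf1: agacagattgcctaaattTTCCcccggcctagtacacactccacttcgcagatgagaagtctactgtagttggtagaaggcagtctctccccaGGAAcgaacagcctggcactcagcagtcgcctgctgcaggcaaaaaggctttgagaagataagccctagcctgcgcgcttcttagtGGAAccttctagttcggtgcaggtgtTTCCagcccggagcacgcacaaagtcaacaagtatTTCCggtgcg
Cd302: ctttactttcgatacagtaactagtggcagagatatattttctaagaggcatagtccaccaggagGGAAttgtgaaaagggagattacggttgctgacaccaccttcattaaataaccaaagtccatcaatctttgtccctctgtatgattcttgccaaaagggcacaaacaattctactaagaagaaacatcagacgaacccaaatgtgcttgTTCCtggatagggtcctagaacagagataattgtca
Mgst2: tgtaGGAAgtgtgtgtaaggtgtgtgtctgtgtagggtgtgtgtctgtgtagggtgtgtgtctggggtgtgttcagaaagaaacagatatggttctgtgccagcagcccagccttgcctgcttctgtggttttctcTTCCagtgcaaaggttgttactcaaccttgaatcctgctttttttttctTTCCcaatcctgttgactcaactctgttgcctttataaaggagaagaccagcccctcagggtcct
These are reference sequences, so they show the C57BL6/J allele and not those of the other strains.

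A core of LPM PU.1 sites was held by all 3 strains, and the strongest entries of each list were nearly all found again in the others. In the full lists 13899 of 79941 sites (17.4%) were in all 3, 14767 (18.5%) in C57BL6/J and NOD/ShiLtJ, 5825 (7.29%) in C57BL6/J and SPRET/EiJ, and 676 (0.846%) in NOD/ShiLtJ and SPRET/EiJ. C57BL6/J alone held 30758 sites (38.5%), NOD/ShiLtJ alone 6783 (8.49%) and SPRET/EiJ alone 7233 (9.05%). The lists are of unequal length, and these shares changed when each list was cut to its 27000 highest deposited scores. Then 11717 of 45741 sites (25.6%) were in all 3, and the strain with the most sites of its own was SPRET/EiJ with 10704 (23.4%), ahead of NOD/ShiLtJ with 6457 (14.1%) and C57BL6/J with 5038 (11.0%). With 10000 entries per list the order was the same, at 23.5%, 11.2% and 10.4%, and 28.9% of 16319 sites were in all 3.

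**Figure D1:**
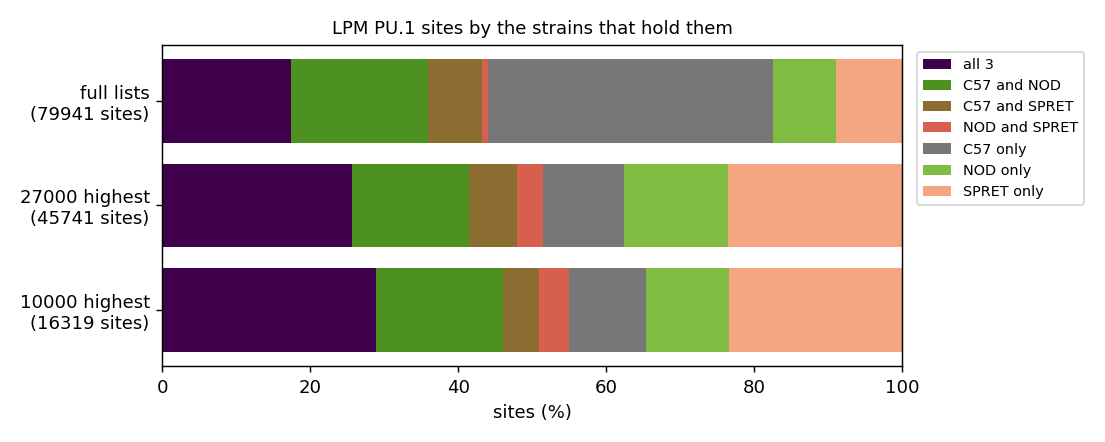
Share of LPM PU.1 sites (x axis, percent) held by all 3 strains, by 2 or by 1, for the full lists and for lists cut to 27000 and 10000 entries. C57 stands for C57BL6/J, NOD for NOD/ShiLtJ and SPRET for SPRET/EiJ. The share of C57BL6/J alone falls from 38.5% to 11.0% once lists have equal length, and that of SPRET/EiJ alone rises from 9.05% to 23.4%.

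Between lists of 27000 entries, C57BL6/J and NOD/ShiLtJ shared 18946 entries (70.2% of each). C57BL6/J and SPRET/EiJ shared 14698 (54.4% of each), and NOD/ShiLtJ and SPRET/EiJ shared 13265 (49.1% of each). The SPRET/EiJ list was therefore the one with least overlap with either other list at equal length. At the 13899 sites held by all 3 strains, the order of scores was also closest between C57BL6/J and NOD/ShiLtJ: Spearman's rho across sites was 0.85, against 0.58 for C57BL6/J and SPRET/EiJ and 0.57 for NOD/ShiLtJ and SPRET/EiJ. Sites are not independent replicates, and each rho rests on 2 libraries. The middles of matched entries lay a median of 11.0, 18.0 and 20.0 bp apart for these pairs, so shared sites had nearly the same position in the 3 lists.

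Overlap fell steadily with rank. Of the 2500 highest entries of C57BL6/J, 97.4% overlapped an entry of the full NOD/ShiLtJ list and 89.7% one of SPRET/EiJ. Of the 2500 highest of NOD/ShiLtJ, 99.4% were found in C57BL6/J and 90.5% in SPRET/EiJ, and of those of SPRET/EiJ, 94.5% were found in C57BL6/J and 89.0% in NOD/ShiLtJ. At ranks 10001 to 12500 the C57BL6/J entries were found in NOD/ShiLtJ at 80.3% and in SPRET/EiJ at 56.2%, and at ranks 25001 to 27500 at 48.4% and 29.4%. Of the 2500 highest entries, 119 (4.76%) in SPRET/EiJ overlapped neither other list, against 17 (0.680%) in C57BL6/J and 7 (0.280%) in NOD/ShiLtJ. How many sequencing reads lie behind each list is not given in the files used here, and whether a weak entry is absent from another strain or below what its library could show was not tested. Nor do the sources used here say whether SPRET/EiJ and NOD/ShiLtJ reads were aligned to a genome of their own strain. An entry missing because reads of a divergent allele did not align cannot be told apart from one missing because PU.1 did not bind.

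**Figure D2:**
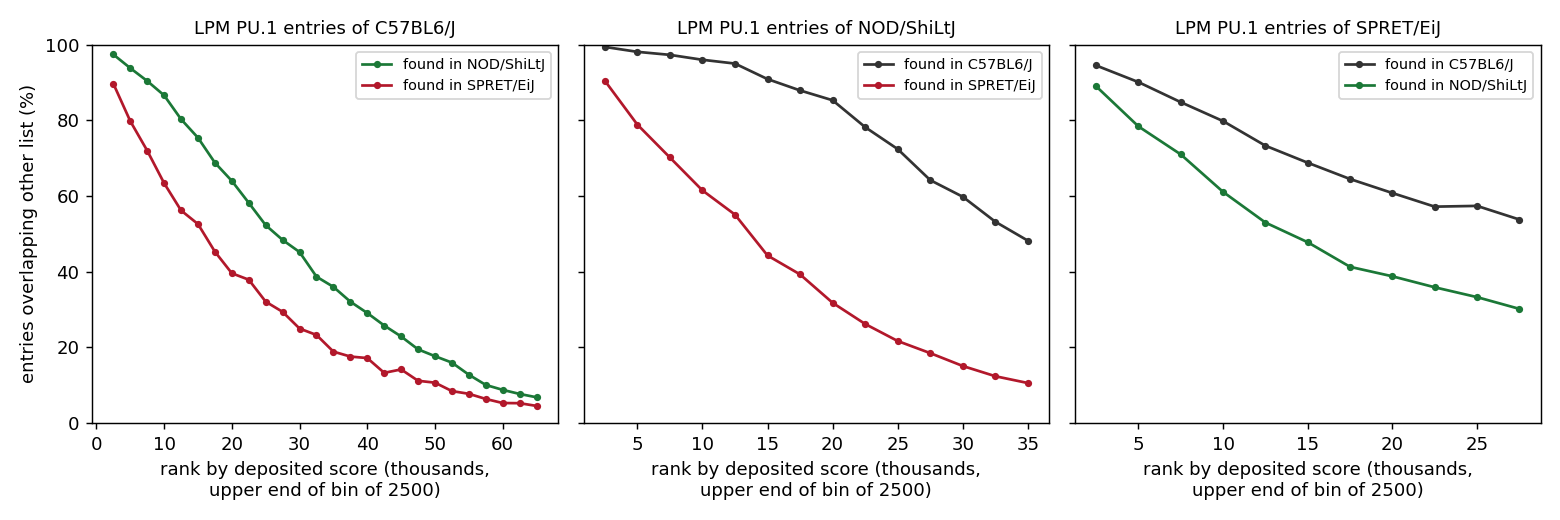
Percent of entries of each strain (1 panel per strain) that overlap the full list of another strain, by rank of the deposited score in bins of 2500 entries. All 6 curves start at 89.0% or more in the first bin and fall with rank, and in each panel the curve of the pair C57BL6/J and NOD/ShiLtJ, or for SPRET/EiJ that of C57BL6/J, lies above the other.

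The most strongly ranked shared sites lay mostly outside promoters. Among the 10 sites with the lowest mean rank, the nearest genes were Tbc1d14, Gm13498, Plekho2, Cd302, Soga1, Lifr, Slc2a1, Slc22a27, Gm2848 and Cd53. The first, at chr5:36563218-36563393 and 19092 bp downstream of the start of Tbc1d14, ranked 15 in C57BL6/J, 6 in NOD/ShiLtJ and 8 in SPRET/EiJ. Tbc1d14 stood at 1249, 1115 and 1248 reads per 10000000 mapped reads in LPM of C57BL6/J, NOD/ShiLtJ and SPRET/EiJ. The site of Cd53 lay 35 bp from its start and ranked 5, 12 and 74, and Cd53 was at 4089, 3420 and 3806, so its level was much the same in the 3 libraries. Of the 10 sites, 9 were also in the microglia PU.1 lists of all 3 strains. The exception lay 54091 bp upstream of Slc22a27, an organic anion transporter gene, and was in the microglia list of C57BL6/J but not in those of NOD/ShiLtJ and SPRET/EiJ. All 10 were in the C57BL6/J lists of SPM (small peritoneal macrophages), BMDM (bone marrow-derived macrophages) and TGEM (thioglycollate-elicited macrophages).

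Sites held by a pair of strains included strong ones. The strongest of C57BL6/J and NOD/ShiLtJ ranked 17 and 71 and lay 80223 bp upstream of Mrpl3, a mitochondrial ribosomal protein gene. Next came a site 100 bp upstream of Pira6, a paired immunoglobulin-like receptor gene, at ranks 26 and 69. Pira6 stood at 68.5, 193 and 430 in C57BL6/J, NOD/ShiLtJ and SPRET/EiJ, so its level was highest in the strain without the entry, and genes of this receptor family are near-identical copies that can share reads. The site near Pisd-ps1 ranked 13 and 246, and this pseudogene, which can share reads with Pisd, was at 1186, 903 and 33.0. The strongest of C57BL6/J and SPRET/EiJ ranked 334 and 259 and lay 5089 bp inside Pgs1, a phosphatidylglycerophosphate synthase gene. The second lay 29 bp from the start of Slc15a3, a lysosomal peptide transporter, at ranks 341 and 534. Pairs of NOD/ShiLtJ and SPRET/EiJ ranked lower: the first, at ranks 2122 and 586, lay 56228 bp inside Rarb, a retinoic acid receptor gene and a marker of LPM, and overlapped none of the microglia, SPM, BMDM or TGEM lists. Rarb stood at 2348, 3134 and 1742 in the 3 strains.

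The levels of the genes nearest to the other leading pair sites are given in the order C57BL6/J, NOD/ShiLtJ and SPRET/EiJ. Near those of C57BL6/J and NOD/ShiLtJ, St13, a chaperone partner, stood at 943, 911 and 1255, and Atg4c, an autophagy protease, at 958, 932 and 609. Near those of C57BL6/J and SPRET/EiJ, Kcnj2, a potassium channel, stood at 74.7, 100 and 106, Fam133b at 252, 282 and 262, and Cd300a, an inhibitory receptor of myeloid cells bound 227 bp from its start, at 684, 1082 and 988. Slc15a3 stood at 193, 152 and 342 (log2 difference of SPRET/EiJ over NOD/ShiLtJ 1.17), and Pgs1 at 501, 425 and 517. Near those of NOD/ShiLtJ and SPRET/EiJ, AF251705, a gene of the CD300 receptor family, stood at 47.1, 52.6 and 362 (2.76), Mrps23 at 88.5, 68.4 and 131, and Gm826 at 9.72, 6.22 and 1.27. The last of the 5, 46 bp from the start of Nrf1, overlapped entries in SPM, BMDM and TGEM of C57BL6/J and in microglia of C57BL6/J and NOD/ShiLtJ. Nrf1 stood at 927, 989 and 868.

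Most sites of every class were distal. The median distance from a site to the nearest transcript start was 12661 bp for sites in all 3 strains, and 17.8% of them lay within 1000 bp of a start (promoter sites). Sites of C57BL6/J and NOD/ShiLtJ lay farther out, with a median of 18816 bp and 12.1% at promoters. Sites of C57BL6/J and SPRET/EiJ that NOD/ShiLtJ lacked lay nearest, with a median of 9508 bp and 24.9% at promoters. For sites of 1 strain the promoter share was 15.5% in C57BL6/J, 11.4% in NOD/ShiLtJ and 16.0% in SPRET/EiJ. The same order of the first 3 classes held in lists cut to 27000 entries, with promoter shares of 17.0%, 10.2% and 21.2%. Sites of 1 strain did not keep their place: there the shares were 12.1% in C57BL6/J, 11.5% in NOD/ShiLtJ and 18.8% in SPRET/EiJ. The SPRET/EiJ-only share was thus below that of sites in all 3 strains in full lists and above it in cut lists. Among the 10000 highest entries alone, the 3 lists had like promoter shares, 12.2%, 12.6% and 12.6%.

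In promoters, a PU.1 motif was most frequent where all 3 strains had a site. The sequence GAGGAAGT, on either strand, occurred in 1052 of the 32851 RefSeq promoter windows (3.20%), each running from 250 bases before to 50 after a start. It occurred in 15.7% of the 1711 windows that overlapped a site of all 3 strains, in 6.59% of 941 with a site of C57BL6/J and NOD/ShiLtJ and in 4.67% of 1006 with a site of C57BL6/J and SPRET/EiJ. In windows with a site of 1 strain it occurred in 2.88% for C57BL6/J, 2.41% for NOD/ShiLtJ and 2.76% for SPRET/EiJ, beside 2.25% of the 25814 windows with no site. Rank moves with these classes: windows over the 10000 highest entries held it at 27.3% in C57BL6/J, 23.8% in NOD/ShiLtJ and 21.5% in SPRET/EiJ. The bare core GGAA occurred in 96.0% of all windows and separates nothing. Of the 6 promoters shown, Nlrp1b held GAGGAAGT and the other 5 did not.

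Strong sites of 1 strain were defined as entries among the 10000 highest of a strain with no entry of either other full list within 500 bp. There were 860 in SPRET/EiJ (8.60%, 95% Wilson interval 8.07 to 9.17), 241 in C57BL6/J (2.41%, 2.13 to 2.73) and 88 in NOD/ShiLtJ (0.880%, 0.715 to 1.08). The length of the lists compared against differs, since a NOD/ShiLtJ entry had to be absent from the long C57BL6/J list. They lay farther from transcript starts than entries in general. Their median distance to a start was 22646 bp in C57BL6/J, 28984 bp in NOD/ShiLtJ and 22798 bp in SPRET/EiJ. For all 10000 highest entries it was 15923, 15752 and 14794 bp. At promoters lay 5.39%, 4.55% and 4.65% of the strong sites, against 12.2%, 12.6% and 12.6% of all 10000 highest. The gap of 500 bp by definition removes entries where those of other strains lie close by, and its part in this difference was not tested. In the full lists, with no gap or rank limit, sites of 1 strain lay at promoters at 15.5%, 11.4% and 16.0%.

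In every strain these sites carried H3K27ac in that strain more often than in the other 2. H3K27ac regions of C57BL6/J covered 47.7% (41.5 to 54.0) of the strong C57BL6/J-only sites, while those of NOD/ShiLtJ covered 7.47% and those of SPRET/EiJ 17.8%. Of the strong NOD/ShiLtJ-only sites, 39.8% (30.2 to 50.2) lay in H3K27ac regions of NOD/ShiLtJ, 18.2% in those of C57BL6/J and 26.1% in those of SPRET/EiJ. Of the strong SPRET/EiJ-only sites, 52.7% (49.3 to 56.0) lay in H3K27ac regions of SPRET/EiJ, 14.4% in those of C57BL6/J and 8.60% in those of NOD/ShiLtJ. Over all 10000 highest entries of each list the share in H3K27ac regions of the same strain was 68.0% in C57BL6/J, 45.1% in NOD/ShiLtJ and 68.7% in SPRET/EiJ, so strong sites of C57BL6/J alone and SPRET/EiJ alone carried the mark of their own strain less often than entries in general, and for NOD/ShiLtJ that share lies within the interval. The share of all these entries in regions of another strain was larger than for the strong sites: 58.5% of those of C57BL6/J lay in SPRET/EiJ regions, and 60.3% of those of SPRET/EiJ in C57BL6/J regions. H3K27ac was mapped in other libraries than PU.1, so these shares do not use the entries that defined the sites. The libraries of a strain share a genome, however. The part of alignment in these shares, or in those of H3K4me2 and microglia below, was not tested. For NOD/ShiLtJ-only sites the intervals of its own regions and of those of SPRET/EiJ (18.1 to 36.2) overlap.

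H3K4me2 gave the same order in 2 strains. It covered 60.2% of the C57BL6/J-only sites in C57BL6/J and 32.0% in SPRET/EiJ, and 61.9% of the SPRET/EiJ-only sites in SPRET/EiJ and 20.9% in C57BL6/J. The NOD/ShiLtJ list of H3K4me2 stood apart: its regions covered 19.6 Mb, against 78.5 Mb in C57BL6/J and 74.9 Mb in SPRET/EiJ, and it overlapped 9.06% of the 10000 highest PU.1 entries of its own strain. With regions within 500 bp counted, that share was 25.1%, against 78.9% for C57BL6/J and 78.8% for SPRET/EiJ. Of the NOD/ShiLtJ-only sites, 13.6% lay in H3K4me2 regions of NOD/ShiLtJ, 17.0% in those of C57BL6/J and 23.9% in those of SPRET/EiJ. H3K27ac of NOD/ShiLtJ also covered less, 24.4 Mb against 43.0 and 44.4 Mb.

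**Figure D3:**
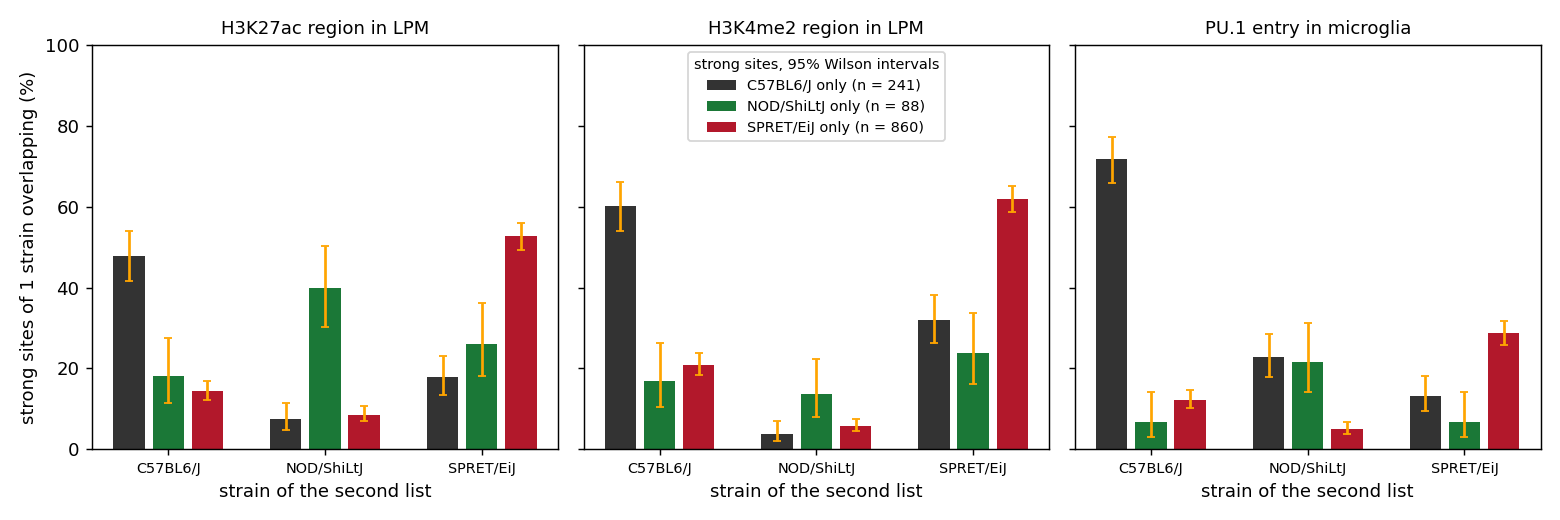
Percent of strong PU.1 sites of 1 strain (bars, with 95% Wilson intervals) that overlap an H3K27ac region of LPM (left), an H3K4me2 region of LPM (middle) or a PU.1 entry of microglia (right) in each strain. For H3K27ac the highest bar of each colour stands in its own strain, at 47.7%, 39.8% and 52.7%. The H3K4me2 bars of NOD/ShiLtJ are low for all 3 kinds of sites.

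Strong sites of 1 strain were found in microglia of the same strain more often than in those of the others, but less often than entries in general. Microglia are the resident macrophages of the brain, and their PU.1 lists hold 44869 entries in C57BL6/J, 18633 in NOD/ShiLtJ and 19832 in SPRET/EiJ. Of the strong C57BL6/J-only LPM sites, 71.8% (65.8 to 77.1) were in microglia of C57BL6/J, 22.8% in those of NOD/ShiLtJ and 13.3% in those of SPRET/EiJ. Of the strong SPRET/EiJ-only LPM sites, 28.7% (25.8 to 31.8) were in microglia of SPRET/EiJ, 12.2% in those of C57BL6/J and 5.00% in those of NOD/ShiLtJ. Of the 88 of NOD/ShiLtJ, 19 (21.6%, 14.3 to 31.3) were in microglia of that strain and 6 in each of the others. Over all 10000 highest entries, 83.7% of those of C57BL6/J, 55.1% of those of NOD/ShiLtJ and 52.2% of those of SPRET/EiJ were in microglia of the same strain. With the microglia lists all cut to 18633 entries the C57BL6/J-only share in C57BL6/J microglia was 54.8%, the SPRET/EiJ-only share in SPRET/EiJ microglia 27.9%, and the NOD/ShiLtJ share was as before. SPM, BMDM and TGEM were mapped in C57BL6/J. They held 98.8%, 91.3% and 95.4% of the C57BL6/J-only sites, 25.0%, 18.2% and 18.2% of the NOD/ShiLtJ-only sites, and 24.8%, 17.2% and 18.1% of the SPRET/EiJ-only sites. All 10000 highest SPRET/EiJ entries were in these lists at 88.7%, 81.5% and 84.5%.

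Genes nearest to strong sites of NOD/ShiLtJ alone or SPRET/EiJ alone were higher in that strain more often than genes in general. RNA levels are reads per 10000000 mapped reads in 1 ribosomal RNA-depleted LPM library per strain, counted over whole transcripts with introns. NOD/ShiLtJ and SPRET/EiJ are in 1 table, and C57BL6/J in another that was normalized separately, so its levels are set beside them without a fold. Of 13157 autosomal genes that reached 10 in NOD/ShiLtJ or SPRET/EiJ, 11.9% were at least 2-fold higher in SPRET/EiJ and 12.1% at least 2-fold lower, on the log2(value + 1) scale. Near strong SPRET/EiJ-only sites lay 601 of these genes: 128 (21.3%, 18.2 to 24.7) were higher in SPRET/EiJ and 56 (9.32%) lower. Near strong NOD/ShiLtJ-only sites lay 63: 3 (4.76%) were higher in SPRET/EiJ and 23 (36.5%, 25.7 to 48.9) lower. The median log2 difference of SPRET/EiJ over NOD/ShiLtJ was 0.26 in the first group, -0.57 in the second and 0.06 over all genes. Genes near C57BL6/J-only sites, which neither of these 2 strains holds, were higher at 13.6% (9.24 to 19.6) and lower at 18.3% (13.2 to 24.9) of 169. The interval of that lower share lies above the 12.1% of all genes. With sites within 50 kb of a start only, the share was 15.5% (10.3 to 22.7). With a pseudocount of 10 in place of 1, 17.6% of genes near SPRET/EiJ-only sites were higher in SPRET/EiJ and 31.7% near NOD/ShiLtJ-only sites were lower, beside 8.63% and 9.67% of all genes. With no filter on low values these shares were 20.9% and 30.4%, beside 10.9% and 10.2%. In bulk RNA, more cells of a type and more RNA per cell cannot be told apart. Whether RNA reads of NOD/ShiLtJ and SPRET/EiJ were aligned to a genome of their own strain is also not stated. A divergent allele whose reads do not align could lack an entry and show a low level together. The part of alignment in these shares, and in those by number of sites below, was not tested.

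The difference grew with the number of sites. For this, strong sites of NOD/ShiLtJ with no SPRET/EiJ entry within 500 bp (2198) and the reverse (2199) were counted per nearest gene, whatever C57BL6/J held. Genes with 1 such NOD/ShiLtJ site were at least 2-fold lower in SPRET/EiJ in 20.8% of 1111 cases. With 2 sites the share was 30.3% of 208 and with 3 or more 50.7% (39.2 to 62.2) of 69. Genes with 1 such SPRET/EiJ site were at least 2-fold higher in SPRET/EiJ in 16.5% of 1141 cases, with 2 in 23.4% of 201, and with 3 or more in 32.3% (22.2 to 44.4) of 65. In the opposite direction the shares were 7.25% for 3 or more NOD/ShiLtJ sites and 3.08% for 3 or more SPRET/EiJ sites. These bins were set after the values were seen.

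**Figure D4:**
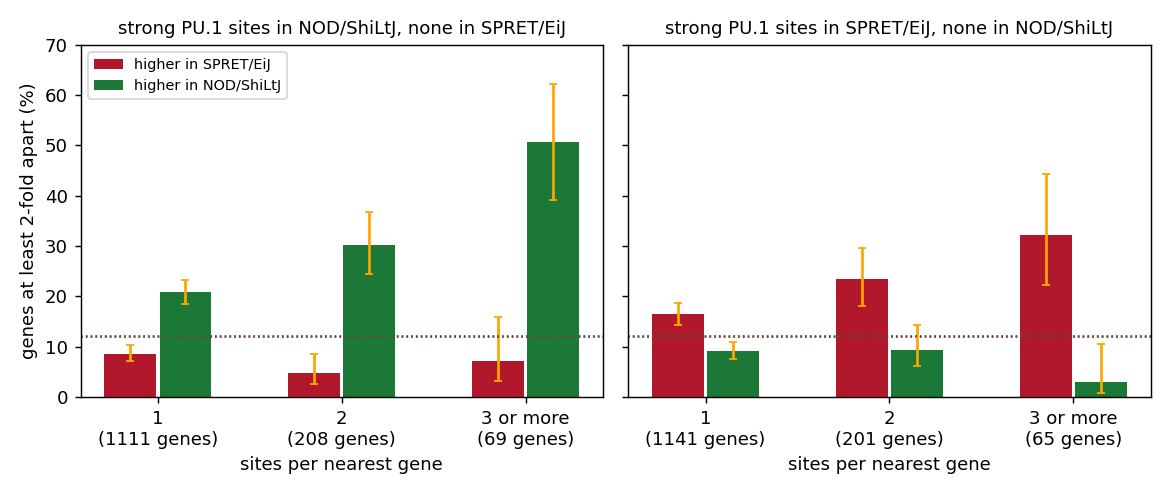
Percent of nearest genes (bars, 95% Wilson intervals) at least 2-fold higher in SPRET/EiJ or in NOD/ShiLtJ, by the number of strong PU.1 sites held by NOD/ShiLtJ and not SPRET/EiJ (left) or the reverse (right). Dotted lines mark 11.9% and 12.1%, the shares over all 13157 genes. The share higher in the strain with the sites goes from 20.8% to 50.7% on the left and from 16.5% to 32.3% on the right.

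With the 3 strains side by side, 2.21% of 13360 genes were highest in C57BL6/J by at least 2-fold over both others, 2.16% in NOD/ShiLtJ and 8.11% in SPRET/EiJ. Near strong NOD/ShiLtJ-only sites 19 of 64 genes (29.7%, 19.9 to 41.8) were highest in NOD/ShiLtJ. Near strong SPRET/EiJ-only sites 93 of 605 (15.4%, 12.7 to 18.5) were highest in SPRET/EiJ, and near strong C57BL6/J-only sites 8 of 175 (4.57%, 2.33 to 8.76) were highest in C57BL6/J. Of those 175, more, 12 (6.86%, 3.97 to 11.6), were highest in SPRET/EiJ, so the strain with the sites did not lead there, and the lower bound for C57BL6/J lies close to the share over all genes. These levels cross separately normalized tables.

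Among SPRET/EiJ-only sites, several genes had a cluster of them. Nos1, the neuronal nitric oxide synthase gene, had 3, at 5613, 7281 and 24625 bp downstream of its start. All 3 lay in H3K27ac and H3K4me2 regions of SPRET/EiJ and in none of the other strains. Nos1 stood at 10.2 in C57BL6/J, 12.4 in NOD/ShiLtJ and 1916 in SPRET/EiJ, a log2 difference of SPRET/EiJ over NOD/ShiLtJ of 7.16. Myo10, an unconventional myosin of filopodia, had 3 sites 11828 to 58316 bp downstream of its start and stood at 233, 501 and 5591 (log2 difference 3.48). Sik1, a salt-inducible kinase, had 3 and stood at 142, 175 and 1080 (2.62). Lphn2, an adhesion receptor, had 3 and stood at 13.3, 17.5 and 170 (3.21). Cwc22, a splicing factor, had 4, of which 3 carried H3K27ac in SPRET/EiJ alone, and stood at 368, 354 and 10614 (4.90). Each of these 5 was highest in SPRET/EiJ, and whether their copy number differs between strains was not tested. Of the other genes with 3 sites, Ccl4, a chemokine gene, stood at 1.53, 5.09 and 0.635, so binding there went with no RNA of note, and 1700049E15Rik and Slco6c1 did not pass 10 in any strain. Rn45s, the ribosomal RNA precursor, which depletion removes to an unknown degree and which has many copies, stood at 96617, 73468 and 132593.

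The highest-scoring SPRET/EiJ-only entries included outlying ones. The first entry of the list, 138300 bp inside Chl1, had a deposited score, of a unit not given, of 6819, whereas the second had 979 and the highest scores of C57BL6/J and NOD/ShiLtJ were 864 and 899. The second and another at rank 131 lay more than 1 Mb from the nearest start, that of Lrrc4c, within 4 kb of each other on chromosome 2. None of these 3 was in any list of other macrophages, microglia of SPRET/EiJ included. All 3 lay in H3K27ac and H3K4me2 regions of SPRET/EiJ and in those of no other strain. Whether these outlying entries reflect binding of PU.1 was not tested. Rank 59 lay 13897 bp downstream of the start of Milr1, an inhibitory receptor known from mast cells, at chr11:106765037-106765210. It carried H3K27ac and H3K4me2 in SPRET/EiJ alone, and Milr1 stood at 120, 81.9 and 1120 (log2 difference 3.76). The same position was bound in microglia of all 3 strains and in SPM, BMDM and TGEM of C57BL6/J, so among these lists it was missing from LPM of C57BL6/J and NOD/ShiLtJ only. The site near Cpsf2, a polyadenylation factor, went with 455, 400 and 774. That near Gm5148 went with 4.09, 3.39 and 64.1 (3.89), and that near Hsf2bp with 7.67, 7.91 and 31.1 (1.85). C230029M16, Pggt1b and Etv6 completed the first 10, and Etv6, an ETS repressor, was lower in SPRET/EiJ than in C57BL6/J (3943 against 6514) and like NOD/ShiLtJ (3980).

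Of the strong SPRET/EiJ-only sites, 40 lay within 1000 bp of a start. Those of Mgst2 and Cd302, whose sequences are given above, were picked after their levels were seen. Another, 238 bp upstream of Cd36 at rank 1284, carried both marks in SPRET/EiJ alone. Cd36 went the other way, at 3935, 4194 and 1212 in C57BL6/J, NOD/ShiLtJ and SPRET/EiJ (log2 difference -1.79). The Mgst2 site lay 16 bp from the start at rank 7160, was also in SPRET/EiJ microglia and in no other list, and carried H3K27ac in SPRET/EiJ alone. Mgst2 stood at 23.0 in C57BL6/J, 12.4 in NOD/ShiLtJ and 589 in SPRET/EiJ (log2 difference 5.46). The Cd302 site lay 10 bp from its start at rank 8754, with a second SPRET/EiJ-only site 5657 bp downstream. Cd302 stood at 426, 359 and 1120 (1.64), although the strong site 4352 bp upstream, named above, was held by all 3 strains.

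Strong C57BL6/J-only sites were headed by Nlrp1b, which lies in a cluster of inflammasome genes that differ between strains. It had the first, 20902 bp upstream of its start at rank 197, and the fourth, 80 bp upstream at rank 696, in the promoter shown. Both carried H3K4me2 and H3K27ac in C57BL6/J, and H3K27ac in neither other strain. Nlrp1b stood at 209 in C57BL6/J, 259 in NOD/ShiLtJ and 57.8 in SPRET/EiJ, so NOD/ShiLtJ, without either entry, was as high as C57BL6/J. Its copies Nlrp1a and Nlrp1b can share reads, and Nlrp1a stood at 33.2, 260 and 80.0. The Spic promoter, 47 bp from the start at rank 7798, carried H3K4me2 in C57BL6/J alone, and Spic was low throughout, at 13.3, 1.70 and 7.62. Fcgr2b, the inhibitory receptor for IgG, had 2 such sites, 7239 bp upstream and 16066 bp downstream of its start, and stood at 1201, 42.9 and 738. It was thus low in NOD/ShiLtJ but not in SPRET/EiJ, though both lacked these entries. Skint3, a gene of the selection and upkeep of intraepithelial T cells family with near-identical copies, had 2 and stood at 105, 0.565 and 0.635.

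The other leading C57BL6/J-only sites did not all go with a higher level. Trim17, a ubiquitin ligase, stood at 42.5, 17.5 and 26.0, and Pxk, a PX domain kinase, at 676, 481 and 557. Rasgrp3, a Ras activator, stood at 1965, 1990 and 651, and Fpr2, a formyl peptide receptor, at 47.6 and 49.2 while it was listed at 0 in SPRET/EiJ. Akr1b8, an aldo-keto reductase, stood at 0.512 in C57BL6/J and 15.9 in SPRET/EiJ and was listed at 0 in NOD/ShiLtJ. Lyz1, a lysozyme gene, had a C57BL6/J-only site 4449 bp downstream and stood at 3705, 2309 and 88329. It was also nearest to a strong SPRET/EiJ-only site 5705 bp upstream, which carried H3K27ac in C57BL6/J and SPRET/EiJ. Lyz1 can share reads with Lyz2, which was at 103020, 101456 and 85259. Ptp4a2 (2045, 2690 and 2800) and Crtc3 (464, 461 and 316) completed the first 10. The 13 genes with 2 sites included Arhgap26 (1904, 2502 and 795), Pfkp (511, 425 and 297), Rassf9 (23.0, 24.9 and 1.27), Sipa1l1 (1577, 1266 and 2118), Smim20 (233, 218 and 244) and Wdr37 (1040, 1038 and 899). The other 4, 1700016G22Rik, 1700054M17Rik, Gm17746 and Gm4846, were at or near 0 in all 3 libraries.

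Strong NOD/ShiLtJ-only sites were few, and 39.8% of them lay beyond 50 kb of a transcript start, against 21.6% of all 10000 highest entries. The first, at rank 44, lay 5958 bp upstream of Pla2g4e, a phospholipase gene at 4.60, 2.83 and 6.98. It carried neither mark in any strain and was in NOD/ShiLtJ microglia. Gm3985 had 4 such sites, 179331 to 393708 bp from its start, and was listed at 0 in C57BL6/J and stood at 212 in NOD/ShiLtJ and 1.27 in SPRET/EiJ. Mdm1 had 2, at 103179 bp upstream and 21047 bp downstream, and stood at 618, 3823 and 454 (log2 difference -3.07). It was also nearest to a strong C57BL6/J-only site 50049 bp upstream and a strong SPRET/EiJ-only site 35224 bp upstream. Cacna1a, a calcium channel gene with a site 5377 bp downstream of its start, stood at 548, 1416 and 93.9 (-3.90). Rnase2a, an eosinophil-type ribonuclease with close copies, had 2 and was listed at 0, 20.3 and 6.35. For these 4 the level was highest in NOD/ShiLtJ, whereas Zfp804b, with 2 sites, stood at 60.9, 303 and 940. Adam17, the TNF-releasing protease, with a site 3095 bp downstream, stood at 899, 787 and 904, and Trim21, an antibody receptor in the cytosol, at 110, 146 and 140. Psmf1, whose promoter is shown, stood at 233, 267 and 216. The sites near Psmf1, Cacna1a and Fam46b overlapped entries of microglia, SPM, BMDM and TGEM of C57BL6/J. Among the C57BL6/J lists used here, they were thus missing from LPM only. Defa21, 1700092C02Rik and Fam46b were at or near 0, as were 9330117O12Rik and B230214G05Rik, which had 2 sites each. Pisd-ps1 had a NOD/ShiLtJ-only site as well as the pair site above, and Gm13498, with 2, stood at 7.16, 29.4 and 14.0.

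**Figure D5:**
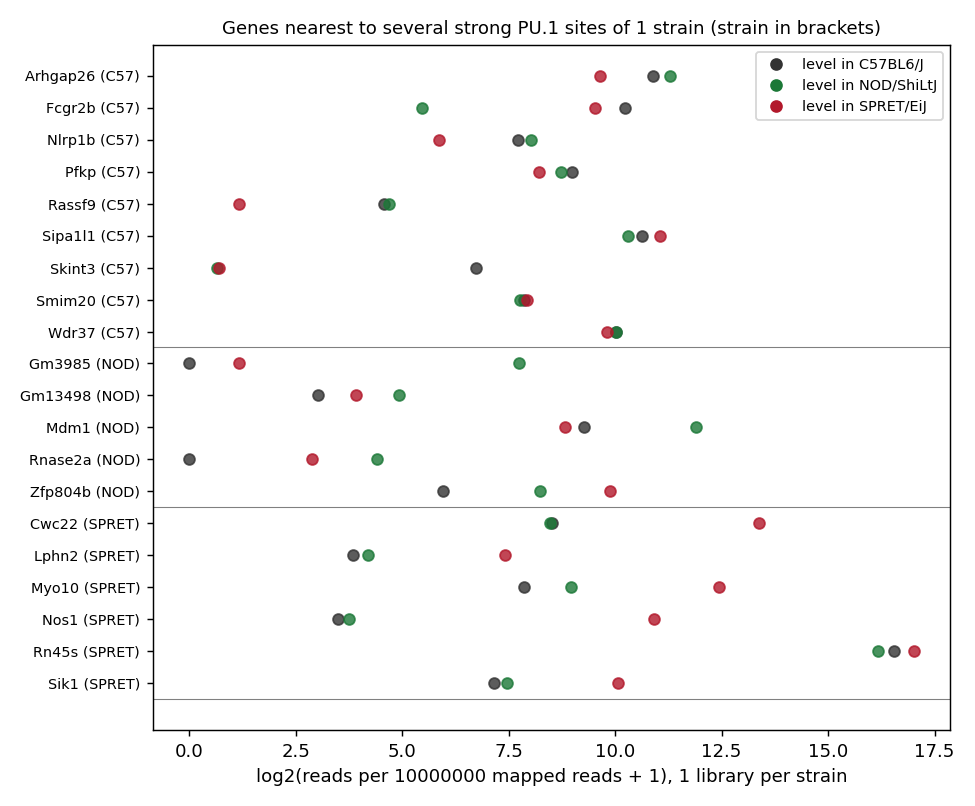
LPM RNA level (x axis, log2 of reads per 10000000 mapped reads + 1) in 1 library per strain for genes nearest to several strong PU.1 sites of 1 strain that reached 10 in at least 1 strain. At least 2 sites were needed for C57BL6/J and NOD/ShiLtJ and 3 for SPRET/EiJ. All 6 genes with SPRET/EiJ sites, the many-copy Rn45s among them, are highest in SPRET/EiJ. Of those with NOD/ShiLtJ sites, 4 of 5 are highest in NOD/ShiLtJ. Of those with C57BL6/J sites, 4 of 9 are highest in C57BL6/J, whose level comes from another table.

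Of 20 core macrophage genes, 19 were nearest to at least 1 site of all 3 strains, Fcgr3 being the exception, beside 6856 of the 16744 genes nearest to any site. They were nearest to 203 sites, of which 46 (22.7%) were in all 3 strains, beside 17.4% of all sites. In lists cut to 27000 entries the share was 27.2% beside 25.6%, near that of all sites. Spi1 itself had 7 sites, 2 of them in all 3 strains, and stood at 824, 883 and 746. Csf1r, the receptor for M-CSF, had 7 with 2 in all 3, and stood at 6539, 7327 and 8374. Itgam, the integrin CD11b, had 16 with 4 in all 3, plus a strong NOD/ShiLtJ-only site 742 bp downstream of its start, and stood at 23334, 21967 and 21522, so its level did not follow that site. Mertk, a receptor for dying cells, had 10 sites in SPRET/EiJ alone among 21, 2 of them strong, and stood at 2924, 3409 and 4407 (log2 difference 0.37). Tlr4, Ctss and Itgb2 each had 1 strong SPRET/EiJ-only site and log2 differences of 0.57, 0.33 and 0.78. Of the 19 core genes compared, 3 were at least 2-fold lower in SPRET/EiJ and none higher, beside 12.1% and 11.9% of all genes compared. They were Fcgr1 (206, 138 and 14.0), Tlr2 (323, 245 and 64.1) and Emr1 (21109, 24039 and 11867), the last encoding the F4/80 antigen.

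Many LPM markers were lower in SPRET/EiJ, while their share of common sites was near that of all sites in lists of equal length (26.6% beside 25.6%). Of 344 sites nearest to the 20 markers, 80 (23.3%) were in all 3 strains, and 3 were strong SPRET/EiJ-only sites, near Rarb, Alox15 and Tgfb2. Gata6 had 9 sites, 2 of them in all 3 strains, and stood at 2086, 2409 and 1600, so this defining LPM gene was expressed in each strain. Of 19 markers compared, 11 were at least 2-fold lower in SPRET/EiJ and 1, Thbs1, was higher, beside 12.1% and 11.9% of all genes compared. Ltbp1, which binds latent TGF-beta, had 55 sites, 12 of them in C57BL6/J and NOD/ShiLtJ and 9 in all 3, and stood at 31473, 33167 and 2708 (log2 difference -3.61). Wnt2 had 16 sites, 11 of them in NOD/ShiLtJ alone and none in SPRET/EiJ, and stood at 1373, 1832 and 241 (-2.92). Selp, P-selectin, stood at 4728, 4886 and 689 (-2.83), F10, coagulation factor X, at 2262, 3350 and 586 (-2.51), and Icam2 at 2316, 3049 and 681 (-2.16). F10 had 3 of its 4 sites and Icam2 6 of 10 in all 3 strains, so for these the level differed beside sites that were shared.

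Among 20 partner and lineage factors, 95 of 412 sites (23.1%) were in all 3 strains. Runx1 had 49 sites, 9 of them in all 3, and Mitf 46 with 7, and these 2 and Irf4 were the 3 of 20 at least 2-fold lower in SPRET/EiJ, a share near the 12.1% of all genes. Nr1h3, the liver X receptor alpha, was the 1 higher, at 20.5, 40.7 and 110. Retinoic acid pathway genes had 38 of 133 sites (28.6%) in all 3 strains, with 12 of 33 at Dhrs3 and 9 of 23 at Rxra. Of 10 compared, Cyp26a1, which degrades retinoic acid, was higher in SPRET/EiJ (98.2, 167 and 595), and Tgm2 and Aldh1a2 were lower. The list of 20 immune genes chosen for variation between strains had the smallest share among these 5 lists, 10 of 69 (14.5%). Since variation was the ground for choosing these genes, this share and the counts that follow are no test of it. Of 18 compared, 2 were higher in SPRET/EiJ and 8 lower, beside 11.9% and 12.1% of all genes compared. Clec4d, a C-type lectin receptor, stood at 1997, 1375 and 19.7 (-6.06). In lists cut to 27000 entries the shares in all 3 strains were 27.2%, 26.6%, 30.3%, 35.5% and 19.6% for these 5 lists in the order given, beside 25.6% of all sites.

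Many markers of other cells were low, but not all, and they were not equal between strains. Cd74, of the list for SPM and dendritic cells, stood at 984, 447 and 1286 in C57BL6/J, NOD/ShiLtJ and SPRET/EiJ. Spi1 stood at 824, 883 and 746. Summed over 8 B cell markers, levels were 1410 in C57BL6/J, 581 in NOD/ShiLtJ and 1419 in SPRET/EiJ, with none at 0. Of these 8, 5 were at least 2-fold higher in SPRET/EiJ than in NOD/ShiLtJ, beside 11.9% of all genes compared. Summed over 8 mast cell markers they were 835, 919 and 248. Of 6 compared, 5 were at least 2-fold lower in SPRET/EiJ, beside 12.1% of all genes compared. For 12 markers of SPM and dendritic cells the sums were 3586, 2617 and 4379, and for 10 microglia markers 471, 424 and 1176. Of 8 microglia markers compared, Tmem119 and P2ry12 were at least 2-fold higher in SPRET/EiJ than in NOD/ShiLtJ and 1 was lower. The shares over all genes compared were 11.9% and 12.1%. The 8 T and NK cell markers summed to 109, 58.2 and 54.0, the 6 neutrophil markers to 13.8, 19.2 and 6.35, and the 6 mesothelial and fibroblast markers to 4.09, 6.78 and 8.25. Their part in the PU.1 lists or in the levels of the genes above was not tested. Strong C57BL6/J-only sites lay near Ms4a1, a B cell marker, and Ciita.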

How the data were processed

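The authors deposited 1 PU.1 peak list per library with a score in its last column, which has no stated unit and was used here only to rank entries within a list. Histone region lists were also deposited, with a score that was not used. The submitters' processing notes name Bowtie, STAR, HOMER and mm10. Versions, thresholds and settings for peak calling were not given in the sources used here. Per the file headers, expression was deposited as signal: reads per gene, with each library's mapped reads set to 10000000. Low values were whole multiples of 1 read in 100% of cases, within 0.1, and the 3 LPM libraries hold 15750000 to 19530000 mapped reads. X and Y genes are listed at 0 in NOD/ShiLtJ and SPRET/EiJ (0 of 1095 above 0), so genes of these chromosomes, Cybb, Vsig4 and Gpr34 among them, were not compared in expression.

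Entries on the 21 common chromosomes were ranked, joined at 1 bp or more of overlap, and assigned to the nearest transcript start of the deposited gene table with Python 3.11.15, pandas 2.3.3, numpy 2.4.6 and scipy 1.17.1. The code was tested on simulated lists. For expression, log2(value + 1) was used and genes needed 10 in NOD/ShiLtJ or SPRET/EiJ. A fold on this scale understates changes of low genes, and near-identical or overlapping genes can share reads since the strand setting is not given. Sites and genes named by rule are the 10 highest strong sites of each strain, the 10 sites in all 3 strains and 5 sites per pair with the lowest mean rank, the genes nearest to the most strong sites (ties kept), and the genes of 12 lists, less 1 gene that is not reported here. Other genes named, such as Mgst2, Cd302, Spic, Psmf1 and their promoters, were chosen after their values were seen. Members and lists were chosen with earlier results of these data known. No genome was used, so sequences come from RefSeq promoter windows of GRCm38.p6, the assembly of mm10, and the planned motif search in all sites was not run. With 1 library per strain no test between strains was possible.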

Additional observations from a re-analysis of the deposited data

How the results depend on the processing

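Results were recomputed under 15 other settings and compared with their 95% counting intervals, or, for counts of strong sites, with 1.5 times the count. The share of sites in all 3 strains was 25.6% and 28.9% in lists cut to 27000 and 10000 entries, 16.4% with an overlap of 50% of each entry and 19.3% with middles within 500 bp. In the same order, the share of C57BL6/J alone was 11.0%, 10.4%, 39.0% and 37.5%, that of NOD/ShiLtJ alone 14.1%, 11.2%, 9.09% and 7.54%, and that of SPRET/EiJ alone 23.4%, 23.5%, 10.1% and 7.88%. Which strain held the most sites of its own therefore depended on whether the lists were cut to equal length. Strong sites of 1 strain were 52 in C57BL6/J, 21 in NOD/ShiLtJ and 277 in SPRET/EiJ among 5000 entries, and 299, 142 and 1093 among 10000 when only overlapping entries were excluded, against 241, 88 and 860. The promoter share of sites in all 3 strains was 13.4% within 500 bp and 27.2% within 3000 bp, and for C57BL6/J alone 10.6% and 23.7%. With regions within 500 bp, 51.1% of NOD/ShiLtJ-only and 58.3% of SPRET/EiJ-only strong sites carried H3K27ac of their strain. Sites of C57BL6/J alone carried it at 42.8% in lists cut to 27000, against 27.3% in full lists, and those of NOD/ShiLtJ at 28.5%, against 22.1%. Cut to 18633 entries, C57BL6/J microglia held 54.8% of C57BL6/J-only strong sites. With a pseudocount of 10, 17.6% of genes near SPRET/EiJ-only sites were higher in SPRET/EiJ. An alternative chosen after seeing the data, which ignores C57BL6/J, gave 23.7% for NOD/ShiLtJ and 18.2% for SPRET/EiJ. The other values stayed within their limits. C57BL6/J alone held the largest of the strain-only shares in full lists and the smallest in both cut lists, so the order of the strains did not hold. No paired analysis was possible because each strain has 1 library. The depth of the PU.1 libraries is not given in the files used here, so weak sites missing from a list cannot be read as unbound.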
